A study of Mus musculus with 17 samples.

Results

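The matrix genes Col27a1, Col12a1, Col16a1 and Fbln1 were followed through neurons and brain sections. They were picked by name with their earlier results in these data known, as collagen and fibulin genes that differed between neuron groups, and they make up 4 of 52636 mouse genes in the cell table and 4 of 28692 genes in the spot table. All samples came from wild-type mice, of the B6 strain per the labels' protocols, with no treatment. The neurons were picked by hand from slices of the anterior thalamic nuclei, a limbic relay of the thalamus, and 877 of them, from 3 animals (101, 317 and 459 neurons), had an animal on record and at least 1000 genes with a count. The sections, 1 anterior (section 5) and 2 posterior (sections 2 and 6), were 10 µm thick and measured on Visium arrays, where each spot collects RNA from a patch of tissue that may hold several cells. Of 7827 spots, 1583 had at least 1 count of Tcf7l2, a transcription factor of Wnt signalling that marks thalamic neurons, and the others had none.

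Collagens are secreted proteins whose chains wind into a rope-like helix. Col27a1 encodes a fibrillar collagen chain best known from cartilage. Col12a1 and Col16a1 encode collagens of the fibril-associated kind, which sit on the surface of other fibrils or link them to neighbouring matrix. Fbln1 encodes fibulin 1, a glycoprotein that binds fibronectin, laminin and elastic fibres. In the adult brain most of the space between neurons holds hyaluronan and proteoglycans, and fibrous collagen lies mainly in the meninges and vessel walls, where fibroblasts make it.

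The genes lie on 3 chromosomes in RefSeq's GRCm38.p6. Col27a1 (ENSMUSG00000045672) spans chromosome 4 from 63214009 to 63334991, and Col16a1 (ENSMUSG00000040690) lies on the same chromosome from 130047817 to 130099277. Col12a1 (ENSMUSG00000032332) spans chromosome 9 from 79598987 to 79721141, and Fbln1 (ENSMUSG00000006369) spans chromosome 15 from 85205949 to 85286294. The 250 bases before a RefSeq start are shown for Col27a1 and Fbln1, the members whose neuron levels ran opposite to each other. Both are on the plus strand, Col27a1 at chr4:63215162-63215411 and Fbln1 at chr15:85205758-85206007, the downstream one of its 2 listed starts, and capitals mark CpG dinucleotides. The Col27a1 window lies within the gene span given above, downstream of its first base. The Fbln1 window runs across the first base of its gene span.

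Col27a1: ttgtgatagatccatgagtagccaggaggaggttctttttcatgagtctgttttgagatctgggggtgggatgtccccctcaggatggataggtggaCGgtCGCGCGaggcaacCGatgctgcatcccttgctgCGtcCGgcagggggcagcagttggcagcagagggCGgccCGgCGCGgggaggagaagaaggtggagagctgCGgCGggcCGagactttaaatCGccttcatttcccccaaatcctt
Fbln1: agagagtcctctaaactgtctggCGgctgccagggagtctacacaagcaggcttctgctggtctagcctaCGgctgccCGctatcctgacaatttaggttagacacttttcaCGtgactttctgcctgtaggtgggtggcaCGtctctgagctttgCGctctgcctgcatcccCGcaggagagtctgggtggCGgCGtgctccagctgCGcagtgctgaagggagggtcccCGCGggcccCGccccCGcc

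The Col27a1 window held 15 CpG dinucleotides and the Fbln1 window 14, more than 72.7% and 70.6% of 32851 RefSeq promoter windows of the same length. Neither window, nor the Col16a1 window with 21 CpG dinucleotides, nor the upstream Fbln1 window with 7, held CTTTGAT or CTTTGTT on either strand, the letters of the motif that Tcf7l2 and its relatives are known to bind. Of all windows, 8.06% held at least 1 of those 2 motifs.

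Neurons carried 26446, 22170.5, 41471 and 121250 median counts in clusters 1 to 4 (439, 208, 191 and 39 cells), which were made from 2000 variable genes of the same cells. The 3 animals were of unequal depth, with 49798, 8872 and 50553 median counts per neuron. Sections held 26032042, 13788407 and 18582120 counts (sections 2, 5 and 6). The labelled tissue was checked by Slc17a6, the glutamate transporter of thalamic relay cells, and Tcf7l2, which averaged 816 to 1058 and 475 to 1042 CPM (the gene's counts scaled to a common library total) across the 4 clusters. The 3 genes used to split cells and spots differed among clusters. Calb2, a calcium-binding protein gene, averaged 334 ± 78.4 CPM in cluster 3 (SD, n = 3 animals). C1ql2, a synapse-organizing gene, averaged 1213 ± 237 CPM in cluster 4, and Tnnt1, a troponin gene, averaged 503 ± 258 CPM in cluster 2. The 3 sections shared 1252 spot barcodes, which are set by the array, and no well barcode was shared by all 14 plates. Cluster 5, 27 oligodendrocyte-like cells by their markers, was set apart. It had Slc17a6 counts in 44.4% of its cells and Col27a1 counts in 12 of 27, so a marker of thalamic neurons and a member were both counted there.

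Col27a1 was carried by most neurons, in 581 of 877 with 10957 counts, and its level parted cluster 3 from the rest. In cluster 1 it stood at 572, 376 and 429 CPM in animals 1, 2 and 3, and in cluster 2 at 185, 348 and 316 CPM. Cluster 4 gave 530, 149 and 184 CPM. Cluster 3 gave 19.3, 19.1 and 44.6 CPM, below every value of the other 3 clusters. By mean the order was cluster 1 (459 ± 101 CPM), cluster 4 (288 ± 211 CPM), cluster 2 (283 ± 86.4 CPM) and cluster 3 (27.6 ± 14.7 CPM), where clusters 4 and 2 did not differ beyond their spread and cluster 4 overlapped cluster 1. The share of cells with a count was 85.9%, 65.4%, 16.2% and 94.9% in clusters 1 to 4. After thinning each cell to 5000 counts, which left out 61 shallower neurons (59 of them from animal 2), it was 69.6%, 48.1%, 10.3% and 56.4%. Among neurons with a count, the lowest level was 6.29, the median 381 and the highest 3309 CPM.

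Fbln1 had the opposite distribution, with nearly all of its neuronal counts in cluster 3. It stood there at 96.3, 92.4 and 73.0 CPM in animals 1, 2 and 3 (87.3 ± 12.5 CPM), and 809 of its 831 neuronal counts came from that cluster. In cluster 1 it gave 0.653, 0.571 and 0.322 CPM, in cluster 2 it gave 0, 0 and 2.81 CPM, and in cluster 4 it gave 0, 12.4 and 0 CPM, where the 12.4 CPM is 2 counts in 1 cell. No value outside cluster 3 reached the cluster 3 range. Even in cluster 3 the gene was counted in 68 of 191 cells (35.6%, exact Clopper-Pearson 95% interval 28.8% to 42.8%), against 1.14% of cluster 1 and 1.44% of cluster 2. The interval pools cells of 3 animals and does not cover differences between them. By animal the share in cluster 3 was 52.6%, 32.8% and 34.2% in animals 1, 2 and 3. The 5 cells richest in Fbln1 held 34.1% of the counts in cluster 3. Of the 191 cells of cluster 3, 22 had counts of at least 3 markers of another cell type. Among them were 6 cells with counts of at least 3 markers of GABA neurons, and these 6 carried 0 of the 809 Fbln1 counts. The 11 fibroblast markers other than Fbln1 summed to 0 to 10.9 CPM on either side of every neuron split described further on. Some other marker lists reached more in Tnnt1-negative neurons, at 1.43 to 318 CPM for pericytes and smooth muscle. There oligodendrocyte markers summed to 21.4 to 201 CPM and endothelium markers to 29.7 to 80.5 CPM. These sums cover sides of splits and not cluster 3 by itself.

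Col16a1 was highest in cluster 2, with 87.3, 56.7 and 80.3 CPM in animals 1, 2 and 3 (74.7 ± 16 CPM). In cluster 3 it gave 76.3, 17.6 and 13.4 CPM, where animal 1 lay inside the cluster 2 range on 103 counts from 4 of 19 cells. Cluster 1 gave 8.49, 5.14 and 5.96 CPM, and cluster 4 held 1 count in 39 cells. Clusters 2 and 3 therefore overlapped, while cluster 2 lay above all values of clusters 1 and 4. A count was found in 26.0% of cells in cluster 2 and 18.3% in cluster 3, against 5.01% in cluster 1.

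Col12a1 was thinly counted, with 513 counts in 114 of 877 neurons, and its clusters could be ordered only in part. Cluster 3 gave 9.63, 47.0 and 13.5 CPM in animals 1, 2 and 3, cluster 1 gave 3.27, 20.5 and 19.6 CPM, and cluster 2 gave 1.04, 5.86 and 13 CPM. These 3 clusters overlapped, and animal 1 was the lowest of the animals in each. In cluster 4 no count was found in 39 cells, an exact upper bound of 9.03% on the share of cells with a count, in the cluster with the highest median depth. This bound pools the animals, and 24 of the 39 cells came from animal 3.

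**Figure D1:**
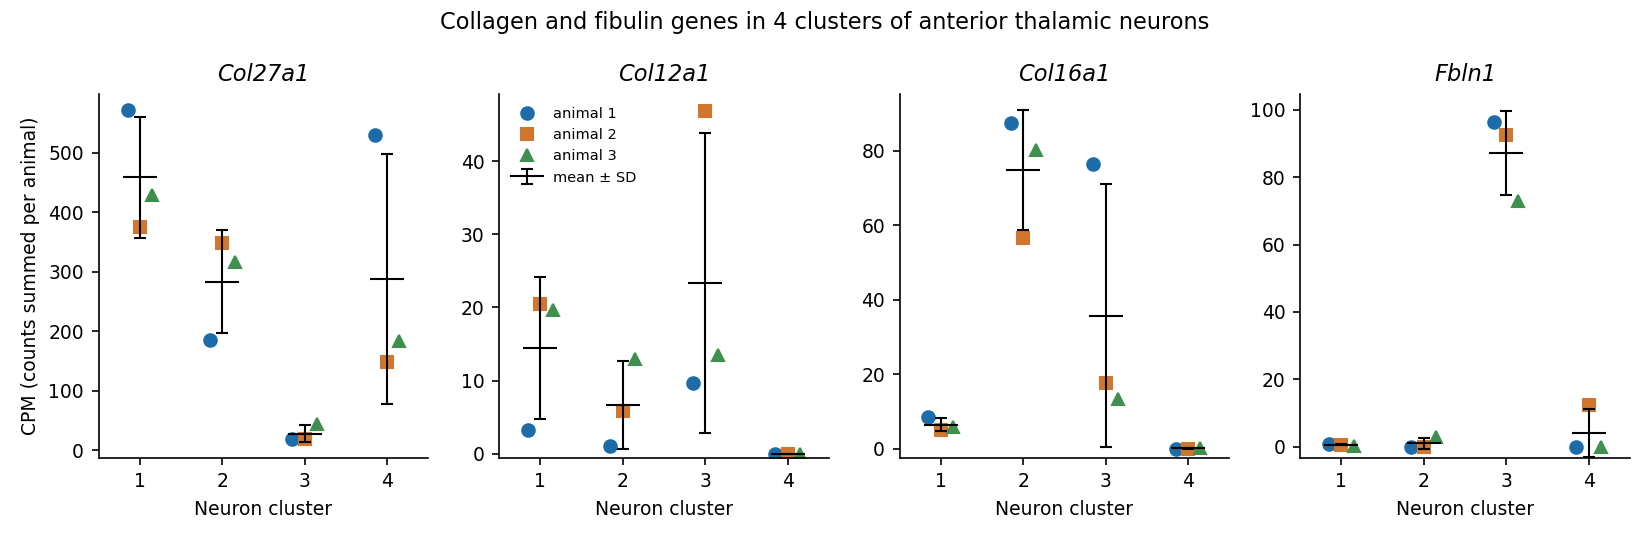
CPM of Col27a1, Col12a1, Col16a1 and Fbln1 in neuron clusters 1 to 4; points are sums per animal and black bars are the mean ± SD of 3 animals, with a linear axis of its own in each panel. Col27a1 is lowest and Fbln1 highest in cluster 3, Col16a1 peaks in cluster 2, and Col12a1 is at 0 in cluster 4.

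Single neurons differed in which members they carried. Of 877 neurons, 174 had a count of no member, 534 of 1 member, 159 of 2, 8 of 3 and 2 of all 4. Col27a1 was counted in 27.3%, 14.3% and 24.4% of neurons with Fbln1 in animals 1, 2 and 3, against 70.0%, 66.6% and 73.4% of neurons without it. Over all neurons Col27a1 was counted in 64.9% of those with Col12a1, against 66.4% of those without it, and in 54.5% of those with Col16a1, against 68.0% of those without it. Fbln1 and Col12a1 went the other way. Fbln1 was counted in 28.6%, 18.9% and 24.3% of neurons with Col12a1, against 9.57%, 5.00% and 7.20% of neurons without it, on 2, 7 and 17 neurons with both. Deeper cells give more counts of any gene, so a shared count also moves with depth, and its part in these shares was not tested.

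For each member the 5 genes whose levels most resembled it were found from 12 sums (4 clusters in 3 animals, each animal centred on its mean of log2(CPM + 1)). These correlations share libraries and clusters and are a description. For Col27a1 they were Mical2 (r = 0.94), Vwa5b2 and Ggps1 (both 0.90), F2r (0.90) and Pfkp (0.90). F2r, the thrombin receptor gene, averaged 45.2, 25.9, 6.08 and 43.0 CPM in clusters 1 to 4. For Fbln1 they were Hrh3 (0.94), Gad2 (0.94), Anp32a (0.93), Pgrmc1 (0.92) and Pcdh17 (0.90). Gad2, an enzyme of GABA synthesis, rested on few cells, since 745 of its 827 counts in cluster 3 came from the 6 cells with GABA markers, none of which had Fbln1. Pcdh17, a protocadherin gene, averaged 175 CPM in cluster 3 and 65.1 to 83.9 CPM in the others. For Col16a1 they included R3hdm1 (0.98), Grik1, Scai and Rreb1 (0.97 each). Rreb1, a zinc-finger factor gene, averaged 33.2, 309, 155 and 0.681 CPM in clusters 1 to 4. For Col12a1 they were Rprd1b (0.98), Iqsec3 (0.97), Tmsb4x (0.95), Plpp4 (0.95) and Spock3 (0.94), the last a matrix proteoglycan gene with 119, 102, 275 and 34.3 CPM.

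The members were set against the rest of the collagen family in the same neurons. Of 44 collagen genes in the cell table, each had at least 1 count in neurons and 11 were counted in at least 5% of neurons. Besides the 3 collagen members these were Col25a1, Col4a1, Col4a2, Col7a1, Col9a2, Col9a3, Col18a1 and Col26a1, named after their values were seen. Col25a1, a membrane-bound collagen of neurons, averaged 443, 520, 336 and 1.87 CPM in clusters 1 to 4. Its lowest mean was thus in cluster 4, whereas that of Col27a1 was in cluster 3. Col18a1, at 33.2, 17.5, 3.69 and 3.74 CPM, was highest in cluster 1 and lowest in cluster 3 by mean, as Col27a1 was. Col25a1, Col26a1, Col4a1, Col4a2 and Col9a3 had their highest mean in cluster 2, so that trait was not particular to Col16a1. Col7a1 averaged highest in cluster 1 and Col9a2 in cluster 3. Col1a1 and Col1a2, the chains of fibroblast collagen, each gave 13 counts in 13 neurons.

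In the sections, Col27a1 and Fbln1 were several times higher in Tcf7l2-positive spots than in other spots. Since this contrast helped to choose the members, it is given without a test. Col27a1 stood at 12.4, 21.2 and 16.5 CPM in Tcf7l2-positive spots of sections 2, 5 and 6, against 2.18, 4.64 and 4.08 CPM in other spots, a ratio of means of 4.60. Fbln1 stood at 33.8, 32.2 and 27.5 CPM against 9.20, 8.31 and 8.43 CPM, a ratio of 3.61. Col12a1 stood at 9.28, 13.1 and 13.1 CPM in Tcf7l2-positive spots, against 6.14, 6.74 and 6.43 CPM in other spots, a ratio of 1.84. Col16a1 was at 13.2, 18.2 and 16.8 CPM against 11.4, 12.9 and 14.9 CPM, a ratio of 1.23, higher in each section but with overlapping groups. The groups did not overlap for 3 of the 4 members, and neither did they for 28.4% of all 13999 genes tested. By adjusted p 22.7% of these genes passed, 10.9% as higher and 11.7% as lower. In such spots fewer cells of a type and less RNA per cell cannot be told apart.

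**Figure D2:**
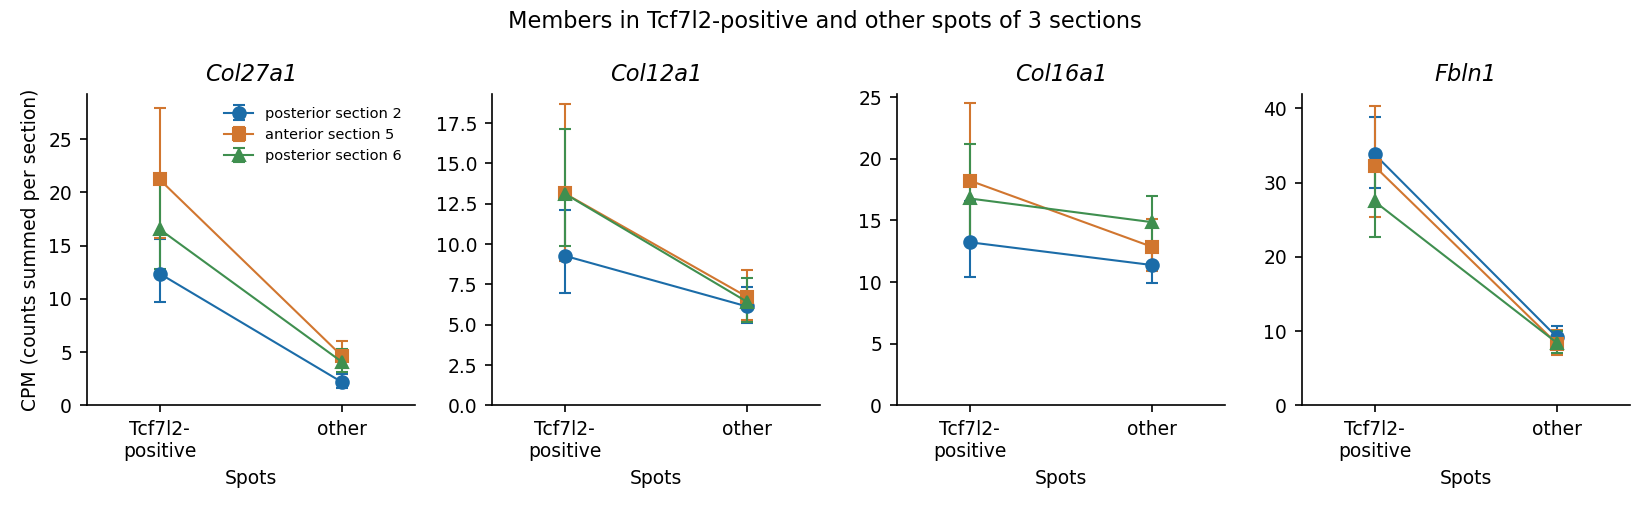
CPM of the 4 members in Tcf7l2-positive spots (left of each panel) and other spots (right) of 3 sections, joined by section; bars are exact Poisson 95% intervals of the summed count. Col27a1 and Fbln1 separate widely, Col12a1 less, and the Col16a1 values overlap.

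Mean levels were ordered by the number of Tcf7l2 counts in a spot for 3 of the members. Col27a1 averaged 3.63 ± 1.29, 7.91 ± 3.26, 22.2 ± 6.94 and 29.0 ± 8.72 CPM in spots with 0, 1, 2 to 3 and at least 4 Tcf7l2 counts (SD, n = 3 sections). Fbln1 averaged 8.65 ± 0.484, 16.8 ± 7.60, 35.0 ± 8.95 and 53.2 ± 8.87 CPM over the same bins, and was higher from each bin to the next in each section. In section 2 Col27a1 gave 19.3 CPM in the bin of 2 to 3 counts and 19.1 CPM in the highest bin. Col12a1 averaged 6.43 ± 0.301, 7.88 ± 4.14, 10.8 ± 3.79 and 19.9 ± 2.20 CPM, but single sections broke the order, with 6.14 CPM at 0 counts and 3.45 CPM at 1 count in section 2, and 11.7 CPM at 1 count and 9.62 CPM at 2 to 3 counts in section 6. Spots with a single Tcf7l2 count, just inside the rule, therefore lay nearer to spots with none than to those with 4 or more. Col16a1 showed no such order, with 13 ± 1.75, 14.7 ± 0.533, 21.1 ± 1.63 and 15.6 ± 6.97 CPM, and its sections spread from 8.47 to 22.4 CPM in the highest bin.

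**Figure D3:**
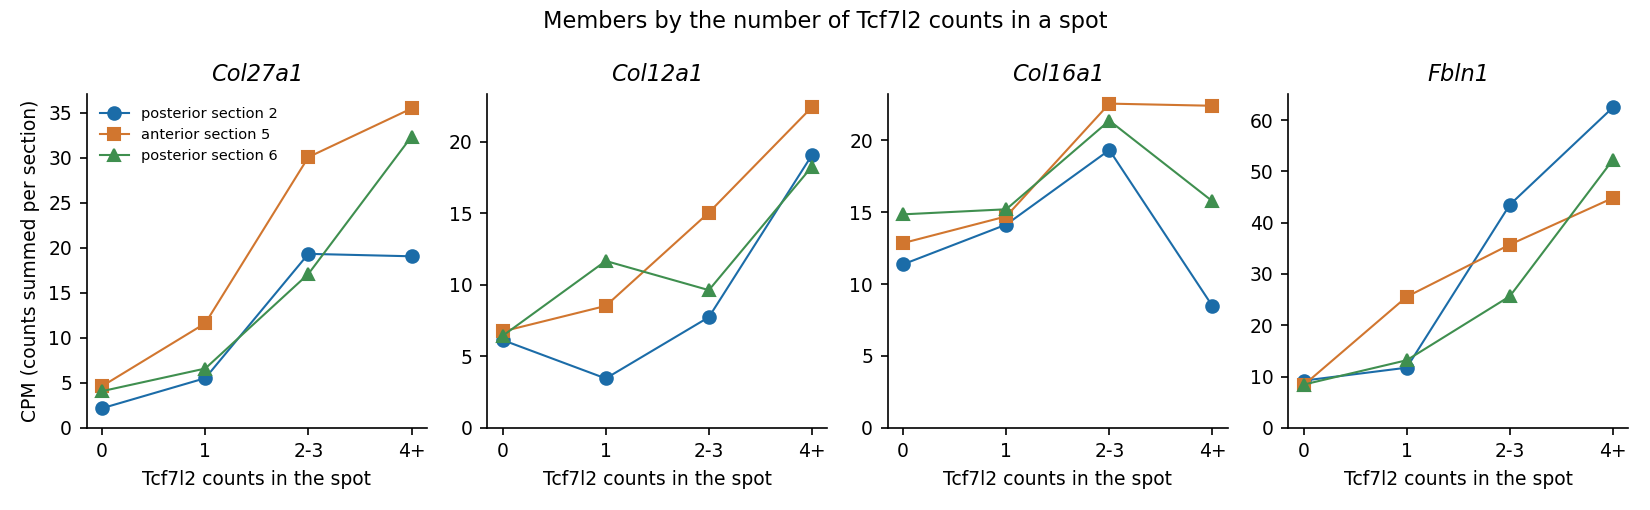
CPM of the members by the number of Tcf7l2 counts in a spot, one line per section, with a linear axis of its own in each panel. Col27a1, Fbln1 and Col12a1 are highest on average in spots with 4 or more Tcf7l2 counts, and Col16a1 is highest on average in spots with 2 to 3.

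Fibroblast markers were also higher in Tcf7l2-positive spots. The 11 markers other than the members summed to 228 to 404 CPM there and 165 to 220 CPM in other spots, and 9 of 11 rose (edgeR's quasi-likelihood test). Spots with counts of at least 3 of these markers made up 9.29% of Tcf7l2-positive spots and 6.07% of other spots. Choroid plexus markers rose too, 5 of 5, at 4963 to 8743 against 4432 to 5369 CPM, as did 4 of 4 ependyma markers (76.3 to 174 against 54.5 to 64.5 CPM), 4 of 6 astrocyte markers (836 to 994 against 661 to 768 CPM) and 15 of 15 thalamic neuron markers (1432 to 1605 against 397 to 430 CPM). Their part in the member levels was not tested. For the fibroblast markers the 4 kinds of spot could be separated. Fbln1 was high on both accounts: it averaged 77.7 ± 34.8 CPM in spots with both, 25.9 ± 3.91 CPM with Tcf7l2 alone, 54.0 ± 17.8 CPM with fibroblast markers alone and 5.51 ± 0.996 CPM with neither. Col12a1 averaged 24.9 ± 21.8, 10.6 ± 1.89, 17.5 ± 10.4 and 5.70 ± 0.365 CPM in the same order, and its 2 fibroblast groups were each highest in section 5. By mean, Col27a1 followed Tcf7l2 alone, at 16.5 ± 6.37 and 16.8 ± 4.09 CPM in Tcf7l2-positive spots with and without fibroblast markers, against 3.71 ± 0.755 and 3.6 ± 1.46 CPM in other spots with and without them. Its fibroblast-marker groups rest on few counts, 10, 5 and 6 with Tcf7l2 and 8, 2 and 3 without it in sections 2, 5 and 6. Col16a1 stood at 24.4 ± 8.01, 15.2 ± 2.18, 18.8 ± 3.55 and 12.6 ± 1.77 CPM. Without fibroblast-marker spots on either side, Fbln1 was still 30.4, 23.4 and 23.9 CPM in Tcf7l2-positive spots of sections 2, 5 and 6, against 6.07, 4.36 and 6.10 CPM in the others.

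**Figure D4:**
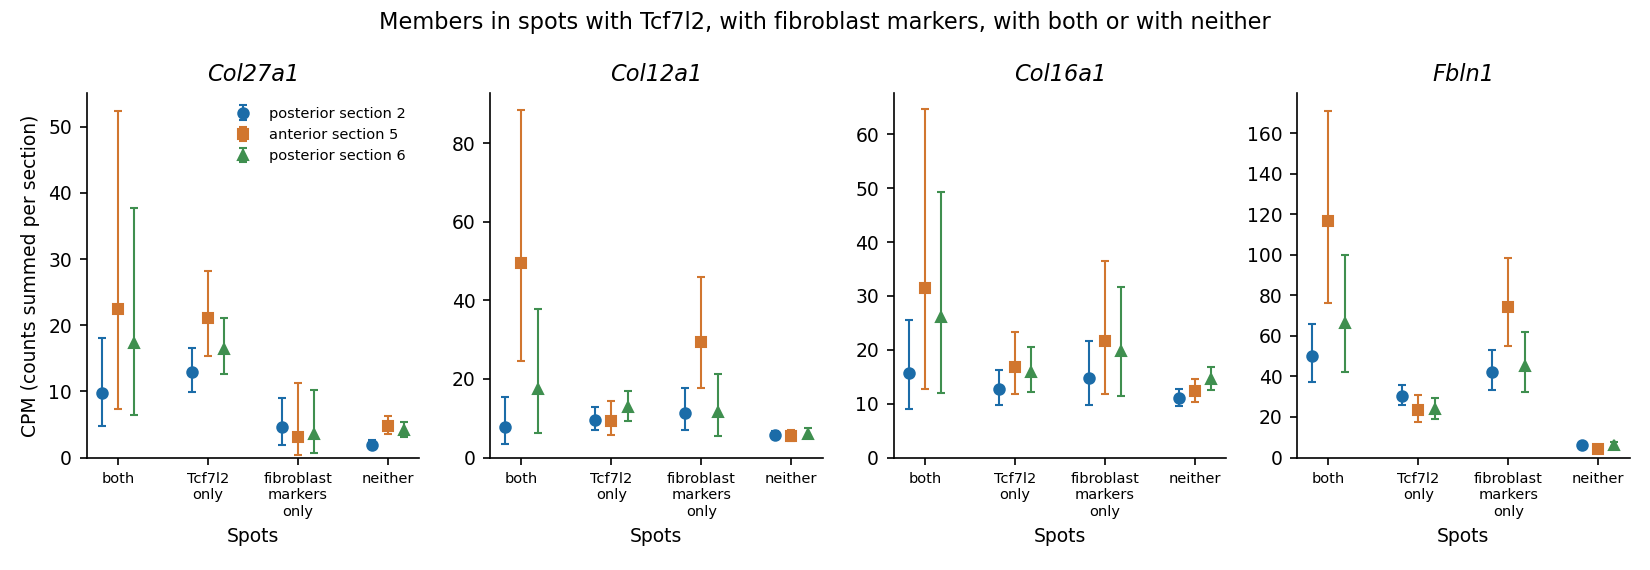
CPM of the members in spots with both a Tcf7l2 count and at least 3 fibroblast markers, with Tcf7l2 only, with fibroblast markers only and with neither; points are sections and bars exact Poisson 95% intervals. Col27a1 is higher in both Tcf7l2 groups, and Fbln1 is higher in all 3 groups than in spots with neither.

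The anterior section had no replicate, so it is compared by counts alone, with exact Poisson 95% intervals that cover counting error only. In Tcf7l2-positive spots Col27a1 stood at 21.2 CPM (15.7 to 28.0, 50 counts) in the anterior section, against 12.4 CPM (9.68 to 15.6, 72 counts) and 16.5 CPM (12.8 to 21.0, 68 counts) in the posterior sections 2 and 6. The anterior interval lay just above that of section 2 and overlapped that of section 6. Fbln1 gave 32.2 CPM (25.4 to 40.3) in the anterior section, against 33.8 CPM (29.3 to 38.9) and 27.5 CPM (22.6 to 33.0) in the posterior ones, all overlapping. For Col12a1 the value was 13.1 CPM in the anterior section, against 9.28 and 13.1 CPM, and for Col16a1 it was 18.2 CPM, against 13.2 and 16.8 CPM.

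Within Tcf7l2-positive spots the members were tested by splitting these spots on a count of Calb2, C1ql2 or Tnnt1. The choice of members did not name these contrasts but is not independent of them. Thalamic neuron markers rose in the Calb2 and Tnnt1 splits, and inside these spots Col27a1, Fbln1 and Col12a1 averaged higher with more Tcf7l2 counts. The tests are therefore no separate support for the choice of members. Nothing in the labels states that the 3 sections came from separate animals. With the section as a block, p-values measure how much the difference between the sides varied among these sections, with variance shared over genes. All are adjusted by the Benjamini-Hochberg method over all genes tested.

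In the Calb2 split, Fbln1 rose most among the members. It stood at 54.5, 42.7 and 48.7 CPM in Calb2-positive spots of sections 2, 5 and 6, against 11.4, 25.6 and 10.5 CPM in Calb2-negative spots, with no overlap, as was so for 21.4% of all genes tested. Its log2 fold change was 1.78 ± 0.22 (SE, adjusted p = 1.78e-05, higher in 3 of 3 sections), and without fibroblast-marker spots it was 2.61. Calb2-positive spots had counts of Fbln1 in 33.3%, 19.4% and 23.6% of spots, against 9.0%, 6.57% and 6.73% of the negative ones. The fibroblast markers summed to 171 to 300 CPM in Calb2-positive and 170 to 551 CPM in Calb2-negative spots, and of 11 tested none passed as higher and 1 as lower. Thalamic neuron markers rose, 12 of 15, at 1990 to 2265 CPM in Calb2-positive and 858 to 1262 CPM in Calb2-negative spots, and 2 of 4 ependyma and 2 of 6 astrocyte markers rose. Markers of oligodendrocytes (7 of 7), striatal neurons (5 of 5), GABA neurons (5 of 8), cortical neurons (4 of 6) and choroid plexus (4 of 5) fell. The part of this makeup in the member values of the Calb2 split was not tested.

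Both fibril-associated collagens also passed in the Calb2 split, with less support. Col12a1 stood at 15.2, 12 and 19.1 CPM in Calb2-positive spots of sections 2, 5 and 6, against 2.86, 13.8 and 8.32 CPM in Calb2-negative spots (log2 fold change 1.15 ± 0.34, adjusted p = 0.0342), so section 5 went the other way. Its adjusted p was 0.383 without section 2 and 0.205 without section 6. Col16a1 stood at 15.2, 26.3 and 23.0 CPM against 11.1, 13.1 and 11.8 CPM, without overlap (log2 fold change 0.75 ± 0.22, adjusted p = 0.0347, higher in 3 of 3 sections). Its adjusted p was 0.0804 without section 5 and 0.238 without section 6, and neither gene passed in DESeq2 or without the section as a block.

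Col27a1 did not pass in the Calb2 split. It was at 11.6, 13.1 and 13.7 CPM in Calb2-positive spots of sections 2, 5 and 6, against 13.2, 26.3 and 18.8 CPM in Calb2-negative spots, lower in 3 of 3 sections (log2 fold change -0.51 ± 0.23, adjusted p = 0.182). Of all 11657 genes tested, 11.6% passed in this split, 5.09% as higher and 6.49% as lower, and 3 of the 4 members passed, all as higher.

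In the Tnnt1 split, Col27a1 was the member that passed. It stood at 23.5, 51.7 and 24.2 CPM in Tnnt1-positive spots of sections 2, 5 and 6, against 9.63, 16.3 and 15.3 CPM in Tnnt1-negative spots, with no overlap, as was so for 20.3% of all genes tested. The log2 fold change was 1.21 ± 0.27 (adjusted p = 0.000140, higher in 3 of 3 sections). Thalamic neuron markers rose with it, 14 of 15, at 3122 to 3667 CPM in Tnnt1-positive and 1380 to 1682 CPM in Tnnt1-negative spots, while those of GABA neurons (8 of 8), striatal neurons (5 of 5), oligodendrocytes (5 of 7) and cortical neurons (4 of 6) fell, and their part in the Col27a1 value was not tested. The Col27a1 sums rest on 27, 17 and 14 counts on the positive side, and without the section as a block the adjusted p was 0.0821. Of 11081 genes, 11.8% passed in this split, 6.01% as higher and 5.76% as lower, and 1 of the 4 members passed.

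The other members gave no call in the Tnnt1 split. Fbln1 was at 40.1, 33.5 and 38.1 CPM in Tnnt1-positive spots, against 32.3, 32.0 and 25.7 CPM in Tnnt1-negative spots (log2 fold change 0.35 ± 0.20, adjusted p = 0.324). Fibroblast markers were lower in Tnnt1-positive spots, at 79.6 to 196 against 252 to 447 CPM with 6 of 8 tested falling, and with fibroblast-marker spots left out Fbln1 had a log2 fold change of 0.68 (adjusted p = 0.0184). Col16a1 (0.19 ± 0.30, adjusted p = 0.803) was at 9.59, 18.3 and 29.4 CPM against 14.1, 18.2 and 14.7 CPM. Col12a1 (-0.13 ± 0.38, adjusted p = 0.902) had 0 counts in the 70 Tnnt1-positive spots of section 5. Leaving out section 6 for Col16a1, or section 5 for Col12a1, turned the sign.

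In the C1ql2 split no member passed in edgeR or DESeq2, and 1 of the 4 had an unadjusted p under 0.05 in edgeR, where 0.417% of 11026 genes passed (0.218% as higher and 0.2% as lower). DESeq2 gave Col12a1 no adjusted p in this split. Col27a1 stood at 22.8, 32.6 and 42.5 CPM in C1ql2-positive spots of sections 2, 5 and 6, against 10.5, 19.9 and 12.8 CPM in C1ql2-negative spots, with no overlap (log2 fold change 1.27 ± 0.29, adjusted p = 0.101), as was so for 15.6% of all genes tested. It passed with fibroblast-marker spots left out (adjusted p = 0.0451) and without section 2 (adjusted p = 0.0223). It did not pass at equal depth (adjusted p = 0.253), without section 5 (0.425), without section 6 (0.394) or without the section as a block (0.268). Median counts per spot were 11136, 6506 and 9103 in C1ql2-positive spots, against 9084.5, 4951.5 and 6703 in C1ql2-negative spots. C1ql2-positive spots were few, with 76, 37 and 55 in sections 2, 5 and 6. Fbln1 (0.09 ± 0.33, adjusted p = 0.984) was at 53.6, 16.3 and 15.4 CPM in them, against 30.3, 34.1 and 29.2 CPM in C1ql2-negative spots. Section 2 alone was higher for Fbln1, and without it the log2 fold change was -0.96 (adjusted p = 0.344). Col12a1 (-0.45 ± 0.50, adjusted p = 0.872) and Col16a1 (-0.51 ± 0.36, adjusted p = 0.772) were each lower in 2 of 3 sections.

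**Figure D5:**
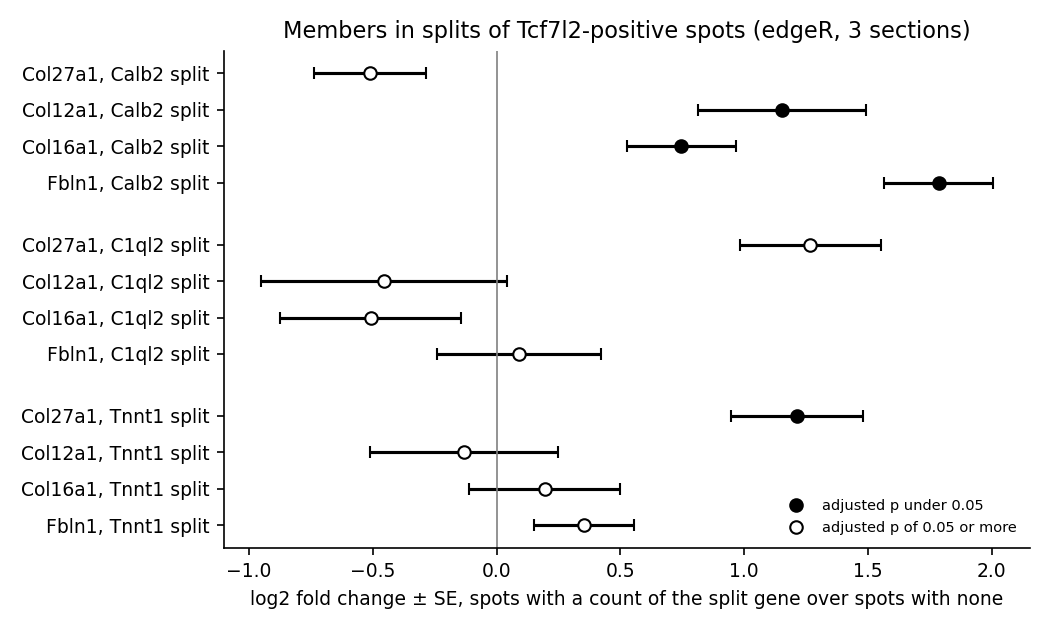
Log2 fold changes ± SE (edgeR, 3 sections) of the 4 members in Tcf7l2-positive spots with a count of Calb2, C1ql2 or Tnnt1 over those with none; filled points have an adjusted p under 0.05. Fbln1, Col12a1 and Col16a1 are filled in the Calb2 split and Col27a1 in the Tnnt1 split.

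The same 3 genes split the neurons themselves, where members are described without a test. Positive neurons had more median counts than negative ones in each animal for Calb2 and C1ql2. In animal 3 these were 75238 against 48955.5 for Calb2 and 99176 against 48082 for C1ql2. The part of depth in the member values was not tested. Calb2-positive neurons had Col27a1 at 98.9, 28.0 and 78.8 CPM in animals 1, 2 and 3, against 457, 322 and 335 CPM in Calb2-negative neurons. Fbln1 was at 72.6, 53.6 and 74.4 CPM in Calb2-positive neurons, against 8.50, 16.1 and 4.43 CPM in Calb2-negative neurons. Neither gene overlapped between the sides, as was so for 18.6% of all 12602 genes tested, while Col12a1 and Col16a1 did. By adjusted p 0.0238% of genes passed in this split. Fbln1 lay higher with Calb2 in 3 of 3 animals, and in 3 of 3 sections as given above. The neuron values were part of the choice of members, so they add no separate support to the spot test.

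C1ql2-positive neurons held Col16a1 at 0, 0 and 8.02 CPM, against 44.2, 17.7 and 22.4 CPM in C1ql2-negative neurons, without overlap, as was so for 24.7% of all genes tested. Col12a1 was at 0.792, 14.2 and 2.73 CPM against 4.78, 23.7 and 17.6 CPM, and Col27a1 at 536, 213 and 259 CPM against 343, 288 and 273 CPM, both overlapping. Fbln1 was at 0, 32.0 and 5.46 CPM in C1ql2-positive neurons, where the 32.0 CPM rests on 9 counts in 2 cells, against 27.4, 20.2 and 26.3 CPM in C1ql2-negative neurons. In this split 2.5% of 12655 genes passed, 1.69% as higher and 0.814% as lower.

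Tnnt1-positive neurons held Col16a1 at 59.6, 26.5 and 28.0 CPM, against 6.42, 11 and 10.0 CPM in Tnnt1-negative neurons. Fbln1 was at 0.611, 0 and 10.8 CPM in Tnnt1-positive neurons, against 46.3, 31.6 and 34.5 CPM in Tnnt1-negative neurons. Both were without overlap, in opposite directions, as 16.5% of all genes tested were without overlap. Col27a1 averaged 309 ± 44.3 CPM in Tnnt1-positive and 317 ± 81.3 CPM in Tnnt1-negative neurons, although it was higher in Tnnt1-positive spots of each section. Col12a1 was lower in Tnnt1-positive neurons of each animal, at 0.917, 11.8 and 11.8 CPM against 7.49, 28.3 and 17.6 CPM. In this split 0.105% of 12334 genes passed, 0.0486% as higher and 0.0568% as lower.

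The other genes of the matrix, in lists of collagens, fibulins and elastic fibre genes, processing enzymes, receptors, basement membrane, neuronal matrix and matrix proteases, were tested in the same fits. Of all 13999 genes tested between Tcf7l2-positive and other spots, 10.9% passed as higher and 11.7% as lower. Tcf7l2-positive spots had 11 of 33 tested collagens higher and 2 lower, with a median log2 fold change of 0.44 against 0.00 over all genes. Besides Col25a1 (1.12 ± 0.08, adjusted p = 7.92e-09), the higher ones included the fibroblast chain Col1a2 (0.82 ± 0.12, adjusted p = 6.07e-05). Of 18 fibulin and elastic fibre genes 8 were higher and none lower, Fbln5 among them (0.88 ± 0.18, adjusted p = 0.00159). DESeq2 called 4 of the collagens, where edgeR called 13, and 1 of the fibulin and elastic fibre genes, where edgeR called 8. Of 25 processing enzymes 5 rose, led by Serpinh1, the collagen chaperone (0.59 ± 0.10, adjusted p = 0.000220), and P4ha2, a prolyl hydroxylase subunit (0.80 ± 0.14, adjusted p = 0.000380). Timp3 and Timp2, inhibitors of matrix metalloproteases, rose by 1.09 ± 0.05 and 0.84 ± 0.05 among 16 protease and inhibitor genes, of which 5 rose and 1 fell. Of 9 receptor genes 3 rose, of 15 basement membrane genes 3 rose, and of 26 neuronal matrix genes 5 rose and 5 fell.

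In the Calb2 split of Tcf7l2-positive spots, of 18 other collagens none rose and only Col8a1 fell (-1.47 ± 0.31, adjusted p = 0.00354), and none of 11 other fibulin and elastic fibre genes passed (2 at an unadjusted p under 0.05, none in DESeq2), while P4ha2 rose (0.80 ± 0.22, adjusted p = 0.0200), 1 of 22 processing enzymes. Of all 11657 genes tested in this split, 5.09% passed as higher and 6.49% as lower. Of 20 neuronal matrix genes 2 rose and 3 fell, with Sparc, a collagen-binding matrix gene, higher (0.83 ± 0.08, adjusted p = 5.39e-07) and the proteoglycan gene Ncan lower (-0.71 ± 0.10, adjusted p = 8.53e-05). Of 12 proteases and inhibitors Timp2 and Timp3 rose and Mmp17 fell, and none of 6 receptor or 9 basement membrane genes passed (1 of each at an unadjusted p under 0.05, none in DESeq2). Over all lists DESeq2 called 4 of 98 genes in the Calb2 split, where edgeR called 10. The Tnnt1 split had 1 of 12 collagens higher and 3 lower, where 6.01% of all 11081 genes tested passed as higher and 5.76% as lower. Col25a1 rose (1.18 ± 0.14, adjusted p = 4.77e-16) as Col27a1 did, and Col1a2 (-1.14 ± 0.31, adjusted p = 0.00330), Col6a1 (-1.86 ± 0.61, adjusted p = 0.0223) and Col1a1 (-1.38 ± 0.47, adjusted p = 0.0336) fell. Col1a1 and Col1a2 are themselves on the list of fibroblast markers, so their fall is not separate from that of the markers. Of 20 neuronal matrix genes 4 rose and 4 fell, with Reln, a secreted matrix protein gene, lower (-1.54 ± 0.29, adjusted p = 3.75e-06), and of 12 proteases and inhibitors 4 rose and 1 fell. Over all lists DESeq2 called 7 of 82 genes in the Tnnt1 split, where edgeR called 20. In the C1ql2 split of spots none of 84 matrix genes passed in edgeR or DESeq2, and 9 had an unadjusted p under 0.05. There edgeR called 0.417% of all 11026 genes tested. In C1ql2-positive neurons 1 of 8 collagens passed, Col25a1, at 203 ± 72.2 CPM against 424 ± 122 CPM in C1ql2-negative neurons (log2 fold change -1.05 ± 0.16, adjusted p = 0.00838, lower in 3 of 3 animals). Timp3 was lower there as well (-1.74 ± 0.25, adjusted p = 0.00534), where 1.69% of all 12655 genes tested passed as higher and 0.814% as lower. None of 65 matrix genes passed in the Calb2 split of neurons and none of 64 in the Tnnt1 split, where 8 and 9 had an unadjusted p under 0.05 and DESeq2 called 2 in each. Of all genes tested, edgeR called 0.0238% and 0.105% in these splits.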

How the data were processed

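The authors deposited raw counts per gene and well (single cells) and per gene and spot (sections), with an animal number per well and a section per spot (other units, per the file headers). The labels name Seurat, Space Ranger and the builds NCBIM37 and mm10, without roles. The aligner, the counting step and whether molecules or reads were counted are not given in the sources used here. Members and gene lists were chosen with earlier results of these data known.

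The 14 labelled cell samples could not be matched to plates, so the animal number of the well table served as the replicate. Wells with at least 1000 mouse genes and 1 animal were kept (904 of 1216 with an animal number). Doublets were not called, since cells were picked by hand. Spike-in and reporter sequences (103) were left out. Cells were clustered in scanpy 1.11.5 (2000 variable genes, 30 components, 15 neighbours, Leiden resolution 0.5), and cluster 5 was set apart by marker lists.

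Counts were summed per animal or section on either side of a split at 1 count of Tcf7l2, Calb2, C1ql2 or Tnnt1. The sums were tested in edgeR 4.0.16 (quasi-likelihood, TMM, filterByExpr, section or animal as block, Benjamini-Hochberg over all genes tested, threshold 0.05). Both sides of a split come from the same section or animal, hence the block: their deviations correlated at 0.10 to 0.52 in spots and 0.08 to 0.12 in neurons. The edgeR step was tested on simulated data. Intervals of sums are exact Poisson and shares exact binomial, for counting error only. Named were the members, the 5 genes most like each (mean of at least 20 CPM; 1 of them is not reported here), and up to 4 called genes of each matrix list with the smallest adjusted p. Alternatives were DESeq2 1.42.0, no filter on low counts, a split at 2 counts, a split at equal depth (spots thinned to 3000 counts and cells to 5000), no block, each replicate left out, and, added after seeing the data, other splits without fibroblast-marker spots and clustering without scaling of genes. Cluster values were also taken without cells under 2000 genes and without cells with at least 3 markers of another type.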

Additional observations from a re-analysis of the deposited data

Results flagged for a closer look

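Fbln1 went opposite ways with Tnnt1 in the cells and in the sections. In neurons it was lower on the Tnnt1-positive side in 3 of 3 animals (log2 ratio of mean CPM -3.30), and in Tcf7l2-positive spots it was higher on the Tnnt1-positive side in 3 of 3 sections (log2 ratio 0.31). The difference between the assays was not tested, and the spot value alone did not pass its test.

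Members were also counted in wells with no animal number. The 56 wells labelled ERCC, with 79309 counts, gave 9 counts of Col16a1 and 11 of Fbln1, against 1 of Col27a1 and 3 of Col12a1. The 56 wells labelled qRNA, with 4367024 counts, gave 158 counts of Col12a1, 221 of Col16a1 and 333 of Fbln1, against 2 of Col27a1. The 16 blank wells, with 323 counts, gave none of any member. Those above 3 counts are singled out, and what the labels of these wells stand for is not given. Median counts per well were 152.5 for ERCC and 25060.5 for qRNA. Per total count, ERCC and qRNA wells held Fbln1 and Col16a1 at the order of their highest neuron cluster means (87.3 and 74.7 CPM). The part of such counts in the neuron values was not tested.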

How the results depend on the processing

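Of 108 alternative values of the tested members, 87 kept direction and side of the threshold, 10 lost a call, 5 gained one and 6 changed sign. The 87 include values that passed in neither fit. DESeq2 gave Col12a1 no adjusted p in the C1ql2 and Tnnt1 splits, and these values were counted as not passing. Fbln1 in the Calb2 split passed under every alternative run (log2 fold change 1.48 to 2.61). Without the replicate block, Col12a1 and Col16a1 in the Calb2 split gave 1.04 (adjusted p = 0.210) and 0.74 (0.135), and Col27a1 in the Tnnt1 split 1.15 (0.0821). DESeq2 gave 1.12 (adjusted p = 0.513) for Col12a1 and 0.77 (0.653) for Col16a1 in the Calb2 split, and -0.19 for Fbln1 in the C1ql2 split. At equal depth Col16a1 in the Calb2 split gave 0.45 (adjusted p = 0.270). In the C1ql2 split Col27a1 gained a call with no filter (1.23), at least 2 counts (1.75) and without fibroblast-marker spots (1.38), and Fbln1 gave -0.070 at 2 counts. Fbln1 in the Tnnt1 split gained one without fibroblast-marker spots (0.68). With each section left out in turn, the Calb2 split gave 0.61 to 1.67 for Col12a1 and 0.65 to 0.94 for Col16a1, the C1ql2 split 0.97 to 1.42 for Col27a1, -1.85 to 0.063 for Col12a1 and -0.96 to 0.44 for Fbln1, and the Tnnt1 split -0.64 to 0.26 for Col12a1 and -0.35 to 0.68 for Col16a1. The cause of these changes was not tested.

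The log2 ratio in Tcf7l2-positive over other spots moved at 2 Tcf7l2 counts to 2.83 for Col27a1, 1.32 for Col12a1 and 2.40 for Fbln1, and without fibroblast-marker spots to 2.23 for Fbln1. Among neuron ratios, Col27a1 in the Calb2 split moved from -2.44 to -3.395 at equal depth. Fbln1 in the C1ql2 split of neurons moved from -0.98 to -3.30 without animal 2. In the anterior section 2 counts gave 32.8 CPM for Col27a1 and 18.7 for Col12a1. Thinned cells gave 99.5 CPM of Col16a1 in cluster 2 and 99.9 of Fbln1 in cluster 3, and clustering without scaling gave 122 CPM of Fbln1 in cluster 3 and 4.61 CPM in cluster 2, against 0.938 CPM as reported. Of 112 cluster values 108 moved by no more than 1 SD, among them all those without cells with at least 3 markers of another type.

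The number of genes past the threshold depended on the fit. Without the block it was 1448 in the Tcf7l2, 576 in the Calb2, 25 in the C1ql2 and 378 in the Tnnt1 split of spots (3173, 1349, 46 and 1304 in the fits reported), and in neurons 105 for C1ql2 and 7 for Tnnt1 (317 and 13). DESeq2 gave 1409, 434 and 431 for the Tcf7l2, Calb2 and Tnnt1 spots, and 183, 707 and 336 for the Calb2, C1ql2 and Tnnt1 neurons; for C1ql2 neurons 56.0% of its calls were higher, against 67.5%, and for Calb2 neurons 53.6% against 3 of 3. No filter gave 250 for C1ql2 spots and 216, 657 and 329 for the 3 neuron splits in the same order. At 2 counts C1ql2 spots gave 273. Equal depth gave 90 and 869 for C1ql2 and Tnnt1 spots, and 191 and 2 for C1ql2 and Tnnt1 neurons. Without fibroblast-marker spots C1ql2 spots gave 72. With each section left out, counts ran from 776 (without section 6) to 1431 for Calb2, 2 (without section 5) to 233 (without section 2) for C1ql2 and 669 (without section 6) to 919 for Tnnt1 spots, and with each animal left out from 16 to 631 for Calb2, 124 to 1128 for C1ql2 and 6 to 762 for Tnnt1 neurons, each highest without animal 1. The size of difference that the members' counts in spots could show was not tested.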
